A study of Mus musculus with 6 samples.

Results

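The genes described here mark endothelial cells, the inner lining of the artery, or carry out their functions. They were chosen as a list of 35 symbols, and a gene entered with the probe set whose platform annotation names that gene alone. All 35 had exactly 1 such probe set, out of 19752 genes so named on the array. RNA came from aortas of mice of 20 weeks on a C57BL/6 background, hybridised to 1 Affymetrix whole-transcript array per sample, and the deposited values are log2 intensities. The DKO group holds 3 arrays of mice carrying both null genotypes, apoe-/- and adora1-/-, and the APOE-KO group holds 3 arrays of apoe-/- mice. Loss of Apoe, an apolipoprotein gene whose absence makes mice prone to atherosclerosis, is therefore shared by all 6 arrays, and loss of Adora1, the gene of the adenosine A1 receptor, sets DKO apart. The series text calls the comparison group ADORA1 KO, but every sample label names apoe-/-, and the sample labels were followed. Sex, the segment of aorta and whether animals were pooled are not given in the labels, so p-values may measure technical spread only, and without a wild-type array the effect of losing Apoe could not be measured.

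Endothelial cells form a single layer joined by cadherin and claudin junctions, respond to growth factors through VEGF and angiopoietin receptors, and set vessel tone by releasing nitric oxide and endothelin. In arteries under laminar flow they hold a quiescent state that depends on ETS, SOX and KLF transcription factors, and they keep blood from clotting with thrombomodulin and the protein C receptor. In an atherosclerosis-prone aorta this layer is where leukocytes and lipoproteins enter the wall. Because whole aorta was measured, fewer endothelial cells and less RNA per endothelial cell cannot be told apart. Several listed genes are also made elsewhere, such as Vwf in megakaryocytes, Stab1 in macrophages and Gata2 and Tal1 in blood cells.

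The deposited values span 2.35 to 14.9. Array medians were 8.01 to 8.02, and any pair of arrays correlated at 0.983 to 0.995 across probe sets. Smooth muscle genes that define the media, such as Acta2 (13.97 to 14.06) and Myh11 (13.23 to 13.61), varied little over the 6 arrays. Both arrays numbered 3 stood apart in lung epithelium genes, whose median level over 7 genes was 6.85, 6.84 and 9.61 in DKO replicates 1 to 3 and 6.95, 6.85 and 10.52 in APOE-KO replicates 1 to 3. The surfactant gene Sftpc read 11.92 in DKO replicate 3 and 12.32 in APOE-KO replicate 3, and 6.21 to 6.45 on the other 4 arrays. Lung is rich in endothelium, and the part of lung in the endothelial values was not tested. Without both arrays, 19 of the 35 endothelial differences moved by over 1.5 times, and the 6 that were over 0.1 in size with all arrays (Cldn5, Kdr, Aplnr, Sox18, Klf2 and Klf4) are given that way beside their genes.

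The endothelial genes as a group did not shift one way. Of the 35, 17 had a higher mean and 18 a lower mean in DKO, with a median difference of -0.027 (log2, DKO minus APOE-KO), against -0.001 over the 21496 probe sets naming 1 gene. The medians of the 3 pairs of same-numbered arrays were 0.091, -0.080 and 0.014. Single genes ranged from -0.45 for Emcn to 0.40 for Erg, which are ratios of 0.730 and 1.32 on the linear scale. That median was 0.10 without DKO replicate 1 and -0.16 without APOE-KO replicate 1. Leaving out a single array moved the difference by over 1.5 times, in size or by a change of sign, in 32 of the 35 genes. The others were Clec14a, Mmrn2 and Robo4. It did so in 11 of the 20 named partner genes. These were picked by smallest p in the same data, so their count is not comparable with that of the 35.

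No endothelial gene passed limma at a Benjamini-Hochberg adjusted p under 0.05, where 0.00% of all 25254 probe sets passed, and none passed with the replicate number as a block, where 0.174% did (0.0950% higher and 0.0792% lower in DKO). The smallest adjusted p-values among them were 0.861 without the block and 0.0585 with it (Mmrn2). At an unadjusted p under 0.05, limma without the block counted 3 of the 35 (background 5.62%), with Erg and Mmrn2 higher (background 2.94%) and Robo4 lower in DKO (background 2.68%), and with the block 12 of the 35 (background 16.2%), 7 higher (background 10.1%) and 5 lower (background 6.10%). The count of 3 was 6 without DKO replicate 1, 2 without DKO replicate 2, 1 without DKO replicate 3 and 6 without APOE-KO replicate 1. With the block and without pair 1, so on 2 pairs, 5 of the genes passed at an adjusted p under 0.05 (Mmrn2, Egfl7, Erg, Sox18 and Thbd), among 415 probe sets that did. Without pair 2 none of the genes and 0 probe sets passed, and without pair 3 none of the genes and 48 probe sets. The 95% intervals of the unpaired differences had half-widths of 0.24 to 0.90, with a median of 0.38, and 33 of the 35 intervals lay within -1 to 1, so a change of 2-fold was outside them for all but Emcn and Kdr.

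**Figure D1:**
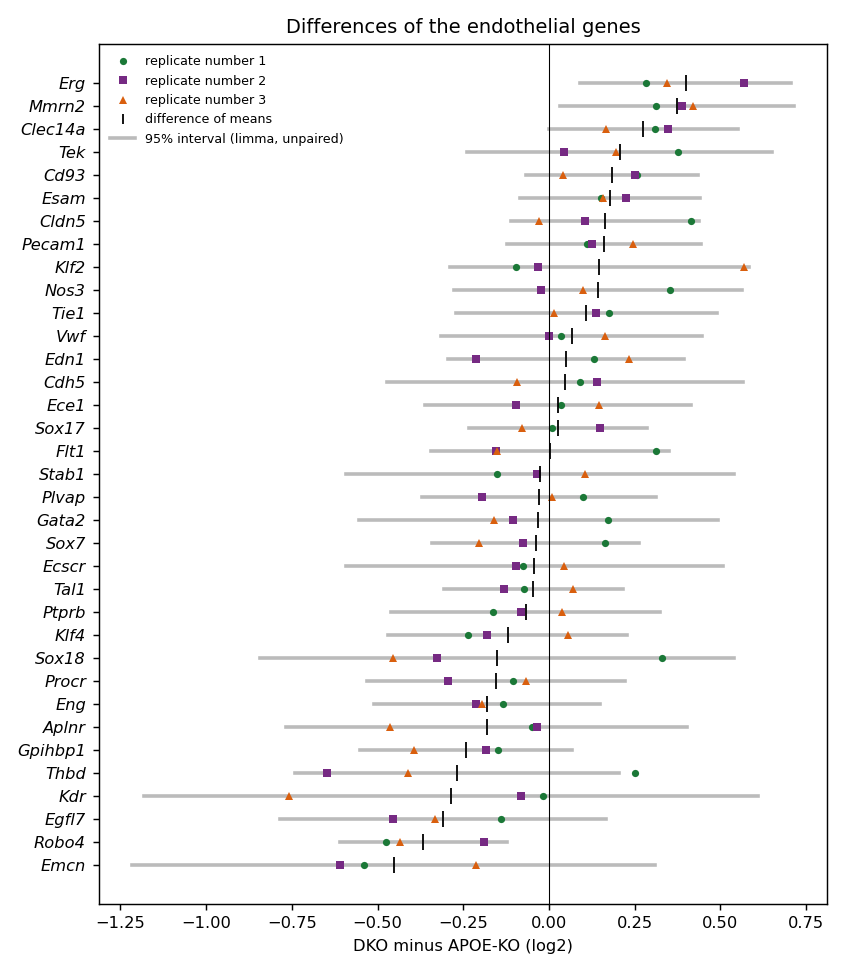
Differences of the 35 endothelial genes, DKO minus APOE-KO on the log2 scale, ordered by the difference of means (black bar). Coloured points are the differences of same-numbered arrays and grey lines the 95% intervals of the unpaired limma fit. Genes at the top, led by Erg and Mmrn2, and at the bottom, Emcn and Robo4, had all 3 points on one side of 0, and the points of the genes between them mostly lie on both sides.

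The DKO and APOE-KO values did not overlap in 2 of the 35 genes, Erg higher and Robo4 lower, against 12.0% of all probe sets (5.55% higher and 6.47% lower). All 3 pairs were higher in DKO in 9 genes (25.7%, background 21.2%) and lower in 8 (22.9%, background 19.1%), and 18 were mixed. These shares lie near the background, and nothing about the endothelial genes as a group is read from them. The 9 were Erg, Mmrn2, Clec14a, Tek, Cd93, Esam, Pecam1, Tie1 and Vwf (in Vwf pair 2 differed by 0.000 after rounding), and the 8 were Emcn, Robo4, Egfl7, Kdr, Gpihbp1, Aplnr, Eng and Procr.

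**Figure D2:**
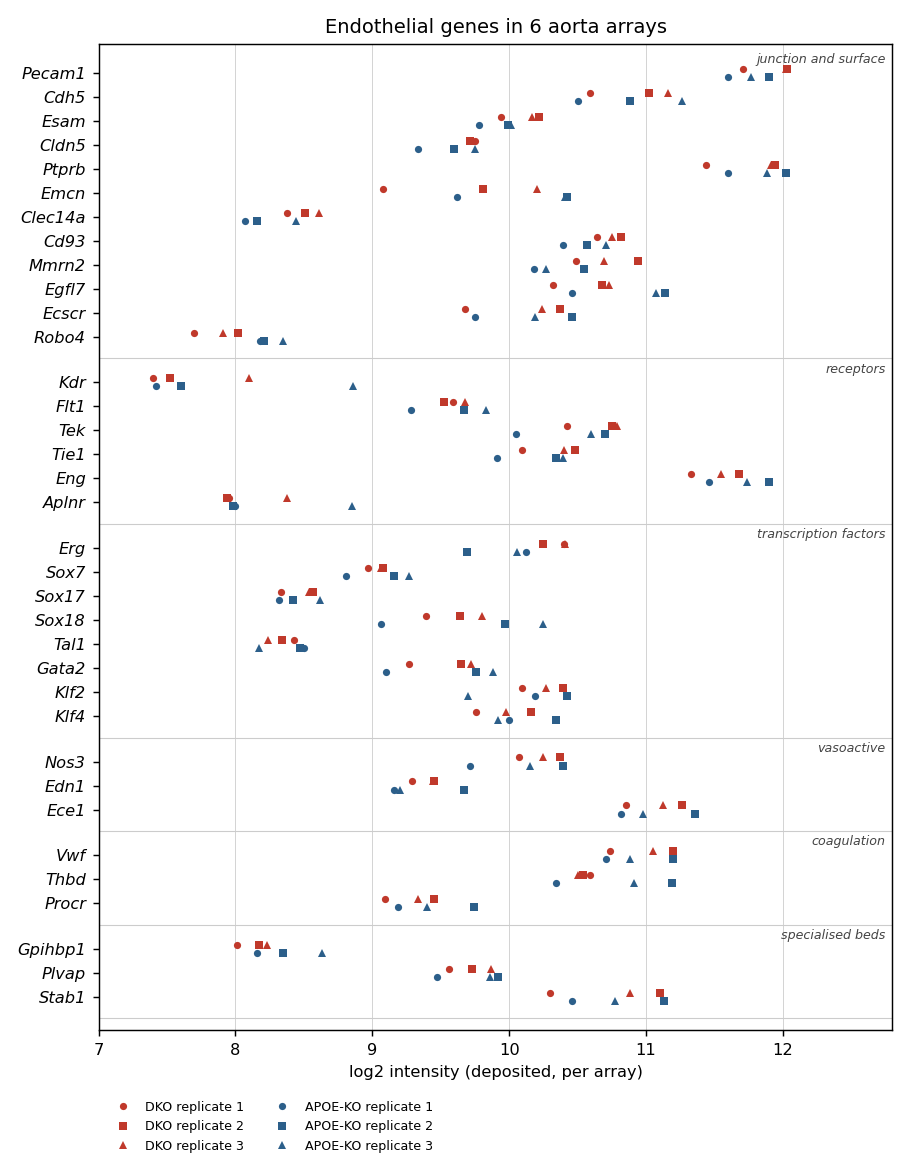
Deposited log2 intensity of each endothelial gene on each array, grouped by role, with DKO in red above APOE-KO in blue and the replicate number shown by the shape. Red and blue points interleave for nearly all genes. Erg shows every red point to the right of every blue one, and Robo4 the reverse. Positions of different genes are not comparable, because each probe set has its own response.

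Promoter sequences are shown for the genes that differed in the same direction in all 3 pairs by at least 0.25 in the mean and have a single start in the RefSeq promoter table of build GRCm38.p6, so that the windows behind a higher gene (Clec14a) and lower genes (Robo4, Emcn, Kdr) can be read side by side. Kdr met these terms mainly through pair 3. The Kdr difference was -0.05 without both arrays numbered 3 and 0.16 without APOE-KO replicate 3. Each window runs from 250 bases before to 50 bases after the annotated start, 5′ to 3′ on the gene's strand. They lie at chr12:58269209-58269508 (minus strand), chr9:37401722-37402021 (plus strand), chr3:137340828-137341127 (plus strand) and chr5:75978406-75978705 (minus strand). Capitals mark the letters GGAAG or their reverse complement CTTCC, a string that holds the shorter core GGAA read by ETS factors such as ERG. Other GGAA or TTCC letters in the windows are in lower case and were not counted.
Clec14a: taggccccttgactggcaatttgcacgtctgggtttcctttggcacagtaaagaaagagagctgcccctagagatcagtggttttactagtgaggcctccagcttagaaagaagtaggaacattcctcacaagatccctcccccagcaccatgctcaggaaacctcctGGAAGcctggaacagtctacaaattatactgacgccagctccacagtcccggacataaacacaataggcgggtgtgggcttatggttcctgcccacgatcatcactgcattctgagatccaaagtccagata
Robo4: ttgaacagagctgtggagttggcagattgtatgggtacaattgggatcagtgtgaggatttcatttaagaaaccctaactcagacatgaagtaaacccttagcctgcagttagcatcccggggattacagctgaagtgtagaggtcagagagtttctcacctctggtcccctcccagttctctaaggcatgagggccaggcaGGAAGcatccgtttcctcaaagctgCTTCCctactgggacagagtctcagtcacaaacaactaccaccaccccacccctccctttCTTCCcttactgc
Emcn: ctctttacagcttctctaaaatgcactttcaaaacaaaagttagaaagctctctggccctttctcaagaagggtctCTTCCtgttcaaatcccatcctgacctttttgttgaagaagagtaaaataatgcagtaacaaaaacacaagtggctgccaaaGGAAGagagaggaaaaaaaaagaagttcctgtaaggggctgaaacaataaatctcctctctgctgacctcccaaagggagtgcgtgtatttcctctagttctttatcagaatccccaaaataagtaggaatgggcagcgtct
Kdr: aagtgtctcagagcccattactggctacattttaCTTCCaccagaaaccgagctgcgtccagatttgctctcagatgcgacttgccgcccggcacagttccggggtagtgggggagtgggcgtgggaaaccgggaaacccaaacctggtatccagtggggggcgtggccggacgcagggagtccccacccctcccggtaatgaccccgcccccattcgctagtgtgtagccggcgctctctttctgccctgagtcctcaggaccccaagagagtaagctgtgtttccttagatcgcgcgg

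That 5-letter string stood once in the Clec14a and Kdr windows, 2 times in the Emcn window and 3 times in the Robo4 window. These counts leave out the shorter core GGAA, so they do not rank the windows by ETS cores. The table held windows of 19 of the 35 genes, 28 windows in all because some genes have several starts. The string was found on either strand in 17 of the 28 windows (60.7%) and in 71.4% of all 32851 windows. The other strings searched on both strands were GATAA for GATA factors (21.4% of the 28 windows, 25.4% of all), ACAAT for SOX factors (7 of the 28 windows and 31.0% of all) and CACCC for KLF factors (71.4% and 57.5%). Matches of different strings may share bases. These matches describe letters in a window and are not binding sites.

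Among genes of the junction and cell surface, 7 of 12 had a higher mean in DKO. Pecam1, an adhesion molecule between endothelial cells that platelets also carry, had levels of 11.71, 12.03 and 12.02 in DKO, against 11.60, 11.90 and 11.77 in APOE-KO. Cdh5, the cadherin of endothelial junctions, had levels of 10.59, 11.02 and 11.16 in DKO, against 10.50, 10.88 and 11.26 in APOE-KO. The groups overlapped in both genes, with differences of 0.16 (95% interval -0.12 to 0.45) for Pecam1 and 0.05 (-0.47 to 0.56) for Cdh5. Esam, a junctional immunoglobulin protein, was 0.18 higher, with pairs at 0.15, 0.23 and 0.16. Cldn5, the claudin of tight junctions, was 0.16 higher, which came mainly from pair 1 (0.42, against 0.11 and -0.03), and was 0.26 higher without both arrays numbered 3. Platelet and red cell genes, which accompany blood left in the vessel, were higher in DKO in 6 of 6 measured, with a median difference of 0.19 and median levels of 9.20, 10.00 and 10.30 in DKO and 9.03, 9.73 and 9.70 in APOE-KO. Their part in the Pecam1 values was not tested.

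Mmrn2, an endothelial matrix protein that binds the lectin-like surface proteins encoded by Clec14a and Cd93, had levels of 10.49, 10.94 and 10.69 in DKO, against 10.18, 10.55 and 10.27 in APOE-KO. Clec14a had 8.38, 8.51 and 8.61 in DKO, against 8.07, 8.16 and 8.44 in APOE-KO. Cd93 had 10.64, 10.82 and 10.75 in DKO, against 10.39, 10.57 and 10.71 in APOE-KO. All 3 genes of this ligand and its receptors were higher in DKO within every pair (background 21.2%), although the groups overlapped in each. Of the 12 junction and surface genes, 5 were higher and 3 lower in every pair. The differences were 0.37 (95% interval 0.03 to 0.72) for Mmrn2, 0.28 (-0.001 to 0.55) for Clec14a and 0.18 (-0.07 to 0.43) for Cd93. None passed in limma, with adjusted p = 0.861, 0.862 and 0.862 without the block and 0.0585, 0.148 and 0.243 with it. The blocked adjusted p of Mmrn2 in limma was 0.0307 without pair 1, 0.418 without pair 2 and 0.15 without pair 3.

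Robo4, a roundabout receptor of endothelium that restrains vessel permeability, had levels of 7.70, 8.02 and 7.91 in DKO, against 8.18, 8.21 and 8.35 in APOE-KO. Its DKO values lay near or below the array medians of 8.01 to 8.02. Every DKO array lay below every APOE-KO array, and the pairs differed by -0.48, -0.19 and -0.43. The difference of means was -0.37 (95% interval -0.61 to -0.12; limma, unadjusted p = 0.00934, adjusted p = 0.861 without and 0.118 with the block). Emcn, the sialomucin endomucin of veins and capillaries, varied far more between arrays, with levels of 9.08, 9.81 and 10.20 in DKO, against 9.62, 10.42 and 10.41 in APOE-KO. Its groups overlapped, yet each DKO array was below the APOE-KO array of its number, by -0.54, -0.61 and -0.21. Its difference of -0.45 (95% interval -1.22 to 0.31) had an adjusted p of 0.883 without and 0.0897 with the block in limma. Without DKO replicate 1 it was -0.15, and without APOE-KO replicate 1 it was -0.72.

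Egfl7, a secreted endothelial factor that guides vessel tube formation, had levels of 10.32, 10.68 and 10.73 in DKO, against 10.46, 11.14 and 11.07 in APOE-KO. The groups overlapped through APOE-KO replicate 1, and the pairs differed by -0.14, -0.45 and -0.33. The difference of -0.31 (95% interval -0.78 to 0.17) had an adjusted p of 0.871 without and 0.130 with the block in limma. The blocked adjusted p in limma was 0.0388 without pair 1, 0.515 without pair 2 and 0.277 without pair 3. Leaving out APOE-KO replicate 1 gave a difference of -0.52, and leaving out DKO replicate 1 gave -0.18. Ptprb, an endothelial phosphatase that dampens angiopoietin signalling, differed by -0.07, and Ecscr, a surface regulator of endothelial movement, by -0.04, each with pairs on both sides of 0. Lymphatic endothelium genes, which include Lyve1, Flt4 and Prox1, were lower in DKO in 6 of 6 measured, with a median difference of -0.36 and median levels of 7.78, 7.87 and 7.89 in DKO, against 8.05, 8.58 and 8.16 in APOE-KO. Of them Lyve1 alone passed in limma with the block (adjusted p = 0.0309; background 0.0792% lower). Their part in the Emcn and Egfl7 values was not tested.

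Of the 6 receptors, 3 had a higher and 3 a lower mean in DKO. Tek, the angiopoietin receptor of endothelium, had levels of 10.42, 10.75 and 10.79 in DKO, against 10.05, 10.70 and 10.60 in APOE-KO. Tie1, its partner receptor, had levels of 10.09, 10.48 and 10.40 in DKO, against 9.91, 10.34 and 10.39 in APOE-KO. Both were higher in every pair but overlapped between the groups, with differences of 0.21 (95% interval -0.24 to 0.65) and 0.11 (-0.27 to 0.49). The difference in Tek was 0.005 without APOE-KO replicate 1. Eng, a coreceptor for BMP ligands, had levels of 11.33, 11.68 and 11.55 in DKO, against 11.46, 11.90 and 11.74 in APOE-KO. Its pairs differed by -0.13, -0.21 and -0.20, a narrow range around a mean of -0.18 (limma, adjusted p = 0.891 without and 0.171 with the block).

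Kdr, the main signalling receptor for VEGF-A, had levels of 7.40, 7.52 and 8.10 in DKO, against 7.42, 7.60 and 8.86 in APOE-KO. On the arrays numbered 1 and 2 these lay below the array medians of 8.01 to 8.02. The array numbered 3 was highest in each group, and the pairs differed by -0.02, -0.08 and -0.76. Aplnr, the apelin receptor, had the same layout, with 7.95, 7.94 and 8.38 in DKO, against 8.0, 7.98 and 8.85 in APOE-KO. Without both arrays numbered 3, on which lung epithelium genes were high, the Kdr difference was -0.05 in place of -0.29 and the Aplnr difference -0.04 in place of -0.18. The part of lung in the Kdr and Aplnr values was not tested. Flt1, which binds VEGF-A and limits its supply to Kdr, differed by 0.002 (95% interval -0.34 to 0.35), with pairs at 0.31, -0.15 and -0.15.

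Erg, the ETS factor that maintains endothelial identity, was the highest of the 8 transcription factor genes by difference. Its levels were 10.40, 10.25 and 10.41 in DKO, against 10.12, 9.69 and 10.06 in APOE-KO. Every DKO array was above every APOE-KO array, with the lowest APOE-KO value in replicate 2. The difference of 0.40 (95% interval 0.09 to 0.71) corresponds to 1.32-fold and did not pass in limma (unadjusted p = 0.018, adjusted p = 0.861 without and 0.0827 with the block). It ranged from 0.26 to 0.48 when single arrays were left out, and with the block but without pair 1 the adjusted p was 0.0366. Without pair 2 or without pair 3 it did not pass.

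The SOX factors Sox7, Sox17 and Sox18, which act in arterial specification and vessel formation, did not share a direction across pairs. Sox18 had levels of 9.39, 9.64 and 9.80 in DKO, against 9.06, 9.97 and 10.25 in APOE-KO. The APOE-KO values spanned the DKO values, and the pairs differed by 0.33, -0.33 and -0.45. On pairs 2 and 3 alone the blocked fit gave an adjusted p of 0.0443 in limma, while over all 3 pairs it was 0.653. Without pair 2 or without pair 3 Sox18 did not pass. The difference of -0.15 was 0.001 without both arrays numbered 3. Sox7 differed by -0.04 and Sox17 by 0.03. Gata2 (-0.03) and Tal1 (-0.05), factors shared with blood cells, likewise had pairs on both sides of 0.

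Klf2, a factor induced by laminar flow, had levels of 10.09, 10.39 and 10.27 in DKO, against 10.19, 10.42 and 9.70 in APOE-KO. The APOE-KO replicate 3 array was the lowest of the 6, and the difference of 0.15 was -0.05 without it and -0.06 without both arrays numbered 3. Klf4, a related flow-responsive factor that smooth muscle cells also make in plaques, differed by -0.12, with pairs at -0.24, -0.18 and 0.06, and by -0.21 without both arrays numbered 3. Neither gene passed in limma (adjusted p = 0.935 for each).

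For vessel tone, Nos3, the endothelial nitric oxide synthase, had levels of 10.07, 10.37 and 10.25 in DKO, against 9.71, 10.39 and 10.15 in APOE-KO. Only APOE-KO replicate 1 fell outside the range of the DKO values by more than 0.1, and the difference of 0.14 (95% interval -0.28 to 0.56; limma, adjusted p = 0.935) was -0.04 without that array. Edn1, the precursor of the vasoconstrictor endothelin, differed by 0.05 (95% interval -0.29 to 0.40). Ece1, the enzyme that cuts that precursor to active endothelin, differed by 0.03 (95% interval -0.36 to 0.42). Pairs of Nos3, Edn1 and Ece1 lay on both sides of 0.

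For coagulation, Vwf, the platelet-binding factor stored in endothelial granules, had levels of 10.74, 11.20 and 11.05 in DKO, against 10.71, 11.20 and 10.88 in APOE-KO. These values overlapped almost completely, with a difference of 0.07 (95% interval -0.32 to 0.45). Thbd, thrombomodulin, which turns thrombin into an activator of protein C, had levels of 10.59, 10.54 and 10.50 in DKO, against 10.34, 11.19 and 10.91 in APOE-KO. The DKO arrays lay within 0.1 of each other while the APOE-KO arrays spread around them, and the pairs differed by 0.25, -0.65 and -0.41. Its adjusted p in limma was 0.889 without and 0.437 with the block, and 0.0238 with the block but without pair 1. Without pair 2 or without pair 3 Thbd did not pass. Procr, the protein C receptor, was lower in every pair by -0.11, -0.29 and -0.07.

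Genes of specialised vessel beds were lower in DKO in 3 of 3. Gpihbp1, which holds lipoprotein lipase on capillaries, had levels of 8.01, 8.17 and 8.23 in DKO, against 8.16, 8.35 and 8.63 in APOE-KO. It was lower in every pair, with a difference of -0.24 (95% interval -0.55 to 0.07; limma, adjusted p = 0.862 without and 0.201 with the block). Without APOE-KO replicate 3 that difference was -0.12. Adipocyte genes were lower in DKO in 6 of 7, with a median difference of -0.54 and median levels of 9.04, 10.22 and 9.51 in DKO, against 10.03, 10.96 and 10.45 in APOE-KO. With the block, Retn (adjusted p = 0.0226) and Cidec (0.0467) of the 7 passed in limma, both lower (background 0.0792%). Lpl, the lipase that Gpihbp1 carries, differed by -0.54 and did not pass (adjusted p = 0.861 without and 0.0827 with the block). Their part in the Gpihbp1 values was not tested. Plvap, of fenestral diaphragms, differed by -0.03, and Stab1, a scavenger receptor of sinusoidal endothelium and macrophages, by -0.03. Stab1 was lowest in DKO replicate 1 of all 6 arrays, with levels of 10.30, 11.10 and 10.88 in DKO and 10.46, 11.13 and 10.77 in APOE-KO. The median level of 7 macrophage genes was also lowest there, at 9.04, 10.48 and 10.15 in DKO and 9.93, 10.23 and 9.94 in APOE-KO, and their part in the Stab1 values was not tested.

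Arrays numbered 1 were the lowest of their group in most of the endothelial genes, in DKO and in APOE-KO alike. DKO replicate 1 was the lowest DKO array in 29 of the 35 genes and APOE-KO replicate 1 the lowest APOE-KO array in 30, and both held in 27 (77.1%), against 19.7% of all probe sets. The layout was not particular to endothelial genes. Both held in 6 of 7 adipocyte, 4 of 6 platelet and red cell, 4 of 7 fibroblast and 3 of 6 lymphatic genes. They also held in 3 of 5 leukocyte, 3 of 5 mesothelium, 3 of 7 macrophage, 2 of 7 lung epithelium and 0 of 8 smooth muscle genes. Relative to each gene's mean over the 6 arrays, the median endothelial gene stood at -0.18, 0.10 and 0.10 in DKO replicates 1 to 3 and at -0.26, 0.15 and 0.08 in APOE-KO replicates 1 to 3. The standard error of the difference was smaller with the replicate block than without it in 35 of 35 genes (85.0% of all probe sets), with medians of 0.071 with it and 0.16 without it. The pairs were taken from these same data because same-numbered arrays deviate together. The smaller standard errors follow from that and are no separate evidence for the pairs. What arrays of the same number share is not stated in the labels, and the batch of microarray that the series text mentions is not given per sample.

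**Figure D3:**
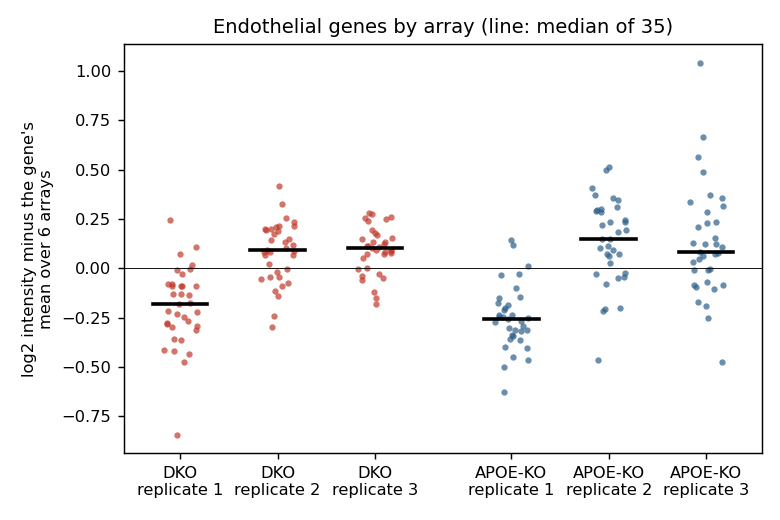
Each point is an endothelial gene's log2 intensity minus its mean over the 6 arrays, by array, and the black lines are medians over the 35 genes. Both arrays numbered 1 lie lower, at -0.18 in DKO and -0.26 in APOE-KO, while the other 4 medians lie between 0.08 and 0.15.

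Of 30 measured genes from a list of 32 other endothelial genes, 23 were lowest in replicate 1 of both groups. In that list 13 had a higher and 17 a lower mean in DKO, with a median of -0.08, and 0 passed in limma with or without the block (at an unadjusted p under 0.05, 0 without it, background 5.62%, and 14 with it, background 16.2%). The 4 with the smallest p were Cdh13, an anchored cadherin (0.21), Tspan18, a tetraspanin (-0.30), Gja4, an arterial connexin (-0.18), and Heg1, a receptor that stabilises endothelial junctions (-0.27). For Gja4 the DKO levels of 9.03, 8.86 and 9.02 all lay below the APOE-KO levels of 9.23, 9.14 and 9.08. The unadjusted p-values of these 4 ran from 0.0702 to 0.0848 (limma, adjusted p = 0.862 for each).

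Among 12 measured ligands of the receptors above, 7 had a higher and 5 a lower mean, and 0 passed in limma with or without the block (at an unadjusted p under 0.05, 1 without it, background 5.62%, and 4 with it, background 16.2%). Angpt1, the activating ligand of Tek, had levels of 6.90, 7.05 and 7.33 in DKO, against 6.66, 6.76 and 6.94 in APOE-KO. Angpt2, which modulates Tek in a context-dependent way, had levels of 10.52, 10.03 and 9.92 in DKO, against 10.15, 9.74 and 9.46 in APOE-KO. Both were higher in every pair (background 21.2%), as Tek was, with differences of 0.31 (95% interval 0.01 to 0.61) and 0.37 (-0.14 to 0.88). Their blocked adjusted p-values in limma were 0.134 and 0.0752. Angpt1 lay below the array medians of 8.01 to 8.02 on every array, and the filter at the 40th percentile removed it. Vegfa, the ligand of Kdr and Flt1, was lower in every pair, with 9.20, 9.64 and 10.05 in DKO, against 9.61, 10.11 and 10.32 in APOE-KO (difference -0.38, 95% interval -0.98 to 0.21; limma, adjusted p = 0.871 without and 0.0790 with the block). That difference was -0.17 without DKO replicate 1 and -0.60 without DKO replicate 3. Apln, the ligand of Aplnr, differed by -0.12.

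Partner genes of nitric oxide and endothelin comprise those that act on their production (caveolins, Ddah1, Gch1, arginases, Ece2) and those that respond to them (receptors, cyclase subunits, Prkg1, Pde5a). They included 5 of 14 at an unadjusted p under 0.05 in limma without the block (background 5.62%), 4 higher (background 2.94%) and 1 lower (background 2.68%). In limma with the block, 7 were higher (background 10.1%) and 2 lower (background 6.10%) at that threshold. The groups did not overlap in 7 (background 12.0%). None passed after adjustment in either fit. Gucy1a1, a subunit of the nitric oxide receptor guanylate cyclase that smooth muscle carries, had levels of 11.09, 10.99 and 10.75 in DKO, against 10.73, 10.36 and 10.36 in APOE-KO. Ednrb, an endothelin receptor, had levels of 7.58, 7.98 and 7.81 in DKO, against 8.01, 8.38 and 8.50 in APOE-KO. Its DKO values lay below the array medians of 8.01 to 8.02. Every DKO array was above every APOE-KO array in Gucy1a1 and below in Ednrb, with differences of 0.46 and -0.50 (limma, adjusted p = 0.861 for each without and 0.0628 and 0.0721 with the block). Cav1 and Cav2, the caveolins, of which Cav1 binds and inhibits the enzyme made by Nos3, were higher by 0.25 and 0.34 with no overlap. Smooth muscle genes had a median difference of 0.06, with 6 of 8 higher. Their part in these values was not tested. The list was drawn up with earlier results of these data known, so its share beyond the background is a description.

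Among 9 measured coagulation partners, 5 had a higher and 4 a lower mean, and 0 passed in limma with or without the block (at an unadjusted p under 0.05, 1 without it, background 5.62%, and 3 with it, background 16.2%). Tfpi, the inhibitor of the tissue factor pathway, had levels of 8.66, 8.64 and 8.68 in DKO, against 8.34, 8.56 and 8.43 in APOE-KO, a difference of 0.22 without overlap. F3, tissue factor itself, differed by -0.30 with pairs at 0.11, -0.57 and -0.42, the layout seen in Thbd. Pros1, the protein C cofactor protein S, differed by 0.25, and Plau, urokinase, by -0.14.

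Of 14 transcriptional partners, 9 had a higher and 5 a lower mean, and 0 passed in limma with or without the block (at an unadjusted p under 0.05, 1 without it, background 5.62%, and 4 with it, background 16.2%). Lmo2, the bridging protein that binds the factor encoded by Tal1, had levels of 10.64, 11.00 and 10.80 in DKO, against 10.34, 10.63 and 10.29 in APOE-KO. Every DKO array lay above every APOE-KO array, with a difference of 0.39 (95% interval 0.08 to 0.71; limma, adjusted p = 0.861 without and 0.0721 with the block). Mef2c, an activator of Klf2 transcription, differed by 0.22, Foxo1, a regulator of endothelial quiescence, by 0.15, and Nr2f2, a factor of venous identity, by -0.27.

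**Figure D4:**
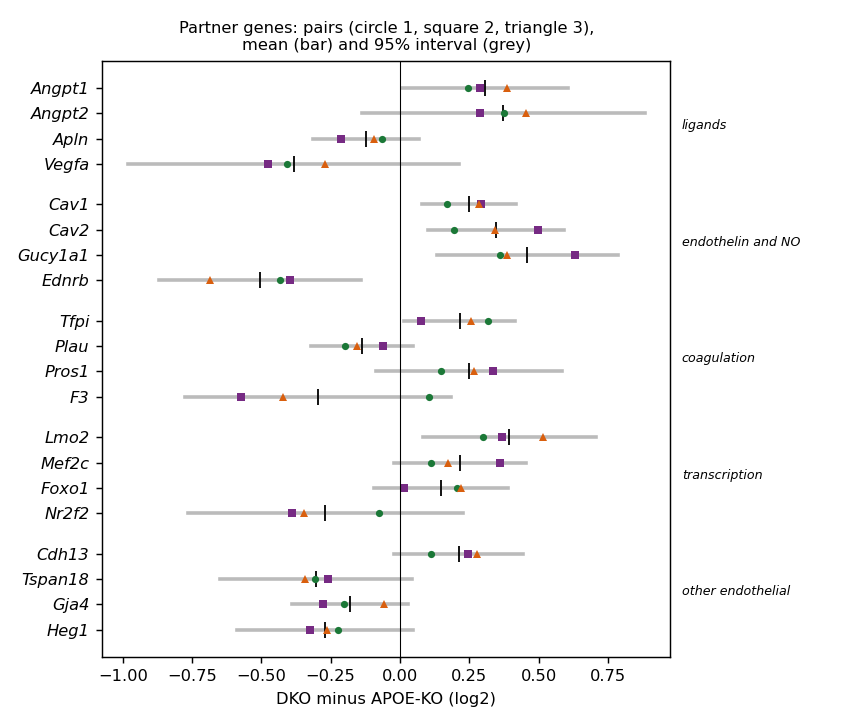
Differences of the 4 genes with the smallest p in each list of partner and other endothelial genes, DKO minus APOE-KO on the log2 scale. Symbols give the pairs by replicate number, bars the difference of means and grey lines the 95% interval of the unpaired limma fit. In 19 of the 20 genes, F3 excepted, all 3 pairs lie on one side of 0, and intervals that exclude 0 belong to Angpt1, Cav1, Cav2, Gucy1a1, Ednrb, Tfpi and Lmo2.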

How the data were processed

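The values are log2 intensities per probe set as the authors deposited them. The submitters' processing notes name RMA, Partek and the mouse build mm9, and versions are not given in the sources used here. Of 25254 probe sets, the platform annotation names 1 gene for 21496, several for 1565 and none for 2193. All 35 Entrez identifiers were found in the RefSeq table of GRCm38.p6, and 0 symbols changed. The 35 genes, their grouping and the other lists were chosen with earlier results of these data known. All 35 genes are described, and of each partner list the 4 genes with the smallest unadjusted p are named.

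Groups came from the sample labels. The fit was limma 3.58.1 in R 4.3.3 (lmFit, eBayes with trend) over all 25254 probe sets, two-sided, with Benjamini-Hochberg adjustment over all of them. It was run on simulated data as a check of the code. The simulated arrays varied independently, with nothing shared by replicate number, so that check does not cover arrays that deviate together. An exact permutation test of 3 against 3 arrays cannot go below p = 0.1. The fit with the replicate number as a block was the paired alternative. Deviations from the group means of same-numbered arrays correlated at 0.60, 0.50 and 0.64 across probe sets, so the numbers were taken as pairs from the data, since no label says what they share. Other combinations gave -0.53 to -0.10. The 3 deviations of a group sum to 0, so positive same-number values force the others to be negative on balance. The negative values are therefore no separate evidence. Other alternatives were single arrays or pairs left out, both arrays numbered 3 left out, a filter at the 40th percentile, quantile normalization, median centring, eBayes options, array weights and unmoderated models. Adora1 was not analysed here. Promoter windows are RefSeq's.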

Additional observations from a re-analysis of the deposited data

How the results depend on the processing

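The count of endothelial genes passing limma at an adjusted p under 0.05 was 0 under every alternative except the replicate block without pair 1, which gave 5 genes (415 probe sets), where none of the genes passed over all 3 pairs. The replicate block over all pairs gave 44 probe sets, and without pair 3 it gave 48. An unmoderated linear model gave 1 probe set, and leaving out single arrays gave 0 to 8. The 3 genes at an unadjusted p under 0.05 became 12 with the block, 13, 10 and 10 with the block and without pair 1, 2 or 3, 1 without both arrays numbered 3, 5 with array weights, 1 in the unmoderated model, 5 in that model with the block, and 1 to 6 without single arrays. The median difference ranged from -0.157 to 0.103 without single arrays. Without both arrays numbered 3, an alternative added after seeing the data for this count, 7 genes in place of 2 did not overlap (background 32.2%). The filter on dim probe sets, renewed quantile normalization, median centring and the eBayes options moved none of these counts by over 1.5 times. Of 665 values of the 35 genes under alternatives, 61 in 20 genes turned direction, compared at 3 decimals, and 599 kept direction and side of the threshold. Of 380 values of the 20 named partners, 0 turned. The partners were picked by smallest p in these data while all 35 genes were kept, so these counts are not comparable. Without both arrays numbered 3, or with the block and without pair 3, Sox7 was 0.044, Sox18 0.001, Gata2 0.033, Klf2 -0.064, Edn1 -0.041 and Ece1 -0.031. With the block and without pair 2, Cdh5 was -0.001, Sox17 -0.034, Gata2 0.006 and Plvap 0.054, and without pair 1 Flt1 was -0.153 and Stab1 0.036. With array weights Flt1 was -0.072, Edn1 -0.016 and Stab1 0.014, and after quantile normalization Flt1 was -0.041 and Ece1 -0.016. Ranges without single arrays for genes that turned were: Aplnr -0.332 to 0.103, Cdh5 -0.144 to 0.236, Ece1 -0.089 to 0.181, Ecscr -0.234 to 0.166, Edn1 -0.042 to 0.212, Flt1 -0.157 to 0.121, Gata2 -0.272 to 0.120, Kdr -0.555 to 0.164, Klf2 -0.053 to 0.305, Klf4 -0.217 to 0.007, Nos3 -0.044 to 0.297, Plvap -0.171 to 0.057, Ptprb -0.185 to 0.095, Sox17 -0.039 to 0.110, Sox18 -0.502 to 0.095, Sox7 -0.174 to 0.056, Stab1 -0.196 to 0.201, Tal1 -0.150 to 0.015, Tie1 -0.043 to 0.227, Vwf -0.044 to 0.200. The cause was not tested. The number of arrays limits the precision.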

Other observations

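Other endothelial genes with the layout of Kdr and Aplnr, chosen after their values were seen, were Cyyr1 and Adgrf5. Cyyr1 had levels of 9.16, 9.47 and 10.08 in DKO, against 9.19, 9.70 and 10.85 in APOE-KO. Adgrf5, an adhesion receptor, had levels of 9.47, 9.83 and 10.09 in DKO, against 9.44, 9.78 and 10.60 in APOE-KO. In both genes the array numbered 3 was the highest of its group.

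Ddah1 and Gucy1b1 were also chosen after their values were seen. Ddah1, which breaks down an inhibitor of nitric oxide synthases, had levels of 7.48, 7.83 and 7.93 in DKO, against 7.99, 7.99 and 8.87 in APOE-KO, without overlap (difference -0.54, 95% interval -1.13 to 0.05). Its pairs differed by -0.52, -0.16 and -0.94, and APOE-KO replicate 3 stood highest of all arrays. Gucy1b1, the partner subunit of Gucy1a1, had levels of 10.86, 10.58 and 10.50 in DKO, against 10.40, 10.13 and 10.29 in APOE-KO, without overlap (difference 0.37, 95% interval 0.08 to 0.66). Neither passed in limma (adjusted p = 0.862 and 0.861).

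Mesothelium genes were higher in DKO in 5 of 5, with a median difference of 0.80 and median levels of 7.74, 8.27 and 8.17 in DKO, against 7.47, 7.44 and 7.63 in APOE-KO. With the replicate block, Upk1b (adjusted p = 0.0309) and Lrrn4 (0.0467) of the 5 passed in limma, where 0.0950% of all probe sets passed as higher.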
